A study of Rattus norvegicus with 16 samples.

Results

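The genes described here encode the cell-surface plasminogen system and the matrix metalloproteinases with their inhibitors: Plau, Plaur, Plat, Serpine2, Mmp2, Mmp14, Timp1, Timp2 and Timp3. They were taken by symbol, and every probe set that the platform annotation tied to exactly 1 of the 9 symbols was counted as a member. This gave 17 probe sets out of 31042 on the rat array, leaving aside the 57 controls. Only probe sets averaging 300 or more in the arrays used were tested, and 13 of the 17 member probe sets passed, as did 20904 probe sets of the whole array. The 4 that did not were 1 of the 2 Plaur probe sets and 3 of the 4 Timp3 probe sets. Each of the 9 genes kept at least 1 tested probe set, and the brightest stood for its gene.

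The cells were cultures labelled as satellite cells of the rat levator ani, a pelvic floor muscle that responds to androgens, used at passage 5. They were exposed to 10 nM of NARA, a nonsteroidal compound that activates the androgen receptor, or to its vehicle, 0.2% DMSO. All groups were kept in medium with 10% charcoal-stripped serum, from which steroids are largely removed, and RNA was taken after 48 h or 4 h. Each group had 4 arrays, of which the authors discarded 3, so that 4 NARA 48 h, 3 vehicle 48 h, 2 NARA 4 h and 4 vehicle 4 h arrays were used. The titles speak of biological replicates but name no separate culture or animal, so p-values speak only of the variation among these cultures as sampled, and that variation may be technical.

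Plasminogen is an inactive protease that circulates in blood and is cut into active plasmin by urokinase (Plau) or by tissue-type plasminogen activator (Plat). Urokinase is held at the cell surface by its receptor (Plaur), and secreted serpins such as Serpine2 trap the activators. Plasmin degrades fibrin and matrix proteins and can activate metalloproteinases, which in turn are inhibited by the Timp proteins. In skeletal muscle this system is known from regeneration, in which cells move through a basement membrane that is being rebuilt.

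The labelled cell type was compared with its defining markers. Of 13 satellite cell and myoblast markers, 11 had a probe set and 8 were above the minimum signal. Pax7 and Myf5, the transcription factors that define satellite cells, had no probe set of their own symbol, and Myod1, the myogenic regulator, was below the minimum with a mean of 83.9. Myog and Des, which mark differentiating muscle cells, averaged 1117 and 774. Passing the minimum does not by itself show expression. Of 8 liver markers 4 also passed it, Alb and Ttr among them with means of 616 and 628. The median of the mean signals was 774 for the satellite cell list and 29006 for the fibroblast list, although signals of different probe sets are not on a common scale per transcript. In a bulk culture, fewer cells of a type and less RNA per cell cannot be told apart. The 13 arrays correlated with each other at r = 0.930 to 0.956, whereas the discarded NARA 4 h replicates 1 and 4 correlated with them at 0.645 to 0.673 and the discarded vehicle 48 h replicate 1 at 0.922 to 0.933. Median signals of the 16 arrays lay between 538.8 and 785.7.

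Promoter sequences of Plau and Plaur are shown because urokinase and its receptor are the surface pair of the system, and Plau carried the one change between NARA and vehicle that passed the test. RefSeq windows on rat build GRCr8, from 250 bases before to 50 bases after the annotated start, were matched by symbol for 6 of the 9 genes, namely Plau, Plaur, Serpine2, Timp1, Timp2 and Timp3. The Plau window lies at chr15:3511938-3512237 on the minus strand and the Plaur window at chr1:89181113-89181412 on the plus strand. Capitals mark matches to the GC box GGGCGG or the AP-1 site TGANTCA on either strand.
Plau: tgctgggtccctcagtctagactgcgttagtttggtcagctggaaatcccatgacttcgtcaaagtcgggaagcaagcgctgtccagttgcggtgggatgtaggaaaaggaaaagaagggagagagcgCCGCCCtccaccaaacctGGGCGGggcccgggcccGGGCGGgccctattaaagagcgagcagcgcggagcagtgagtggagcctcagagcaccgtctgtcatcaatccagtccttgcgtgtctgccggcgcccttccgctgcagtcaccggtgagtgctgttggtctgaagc
Plaur: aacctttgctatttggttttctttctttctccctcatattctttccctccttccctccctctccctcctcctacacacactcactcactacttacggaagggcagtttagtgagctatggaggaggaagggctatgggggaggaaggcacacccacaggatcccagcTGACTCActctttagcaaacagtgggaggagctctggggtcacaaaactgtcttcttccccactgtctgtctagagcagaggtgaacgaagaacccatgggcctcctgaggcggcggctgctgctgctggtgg

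A total of 5 motifs were searched on both strands. The GC box was found in 5 of the 6 windows and in 33.1% of 33469 rat promoter windows of the same length. In the Plau window it starts at -122, -104 and -87, counted with the annotated start at 0. The AP-1 site was present in 1 of the 6 windows, that of Plaur, at -83, and in 7.33% of all windows. The androgen response element arm AGAACA was in 0 of the 6 windows against 20.7% of all windows. The full element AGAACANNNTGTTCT was also in 0 of the 6, against 0.0149% of all, and TATAAA in 0 of the 6, against 14.2%. No match says only that these letters are not in these windows. The Plau window has a GC content of 61.0% and the Plaur window of 54.0%, against a median of 51.7% over all windows.

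Plau, which encodes the urokinase-type activator, was higher in NARA than in vehicle cells after 48 h. The brighter Plau probe set (1387675_at) had signals of 3136, 3137, 3529 and 4019 in the NARA 48 h arrays, against 1891, 1717 and 1912 in the vehicle 48 h arrays. Every NARA array lay above every vehicle array. NARA cells averaged 3456 ± 419 (SD, n = 4), against 1840 ± 107 (SD, n = 3) for vehicle cells. Tested with limma on log2(signal + 50), on which a fold change is understated for dim probe sets, Plau rose by 0.89 on the log2 scale, or 1.85-fold, with a standard error of 0.125, a 95% interval of 0.61 to 1.16 and an adjusted p of 0.00263. Among all tested probe sets, 3.44% (719) had a log2 difference at least as large in size.

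A second, dimmer Plau probe set (1398287_at) lay in the same order at 48 h without passing the test. Its signals were 908, 724, 1150 and 1164 in NARA 48 h arrays, against 719, 635 and 572 in vehicle 48 h arrays. The groups did not overlap, but the lowest NARA array, at 724, was barely above the highest vehicle array, at 719. It differed by 0.56 on the log2 scale (SE 0.167), with a limma adjusted p of 0.108. Without NARA 48 h replicate 2, the lowest of its group, the difference was 0.70 and the adjusted p 0.0345. That was the only 1 of 24 alternatives in which this probe set passed, and the other 23 left it uncalled. The discarded vehicle 48 h replicate 1 had 822, inside the NARA range. Over the 13 arrays the log2 signals of the Plau probe sets correlated at r = 0.547.

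At 4 h Plau showed a smaller difference of the same sign that did not pass the test. The brighter probe set had signals of 2554 and 2095 in the NARA 4 h arrays, against 1587, 1594, 1817 and 1448 in vehicle 4 h arrays. Both NARA arrays were above all 4 vehicle arrays, whereas the discarded NARA 4 h replicates 1 and 4 had 1346 and 1420, below all 4. That discarded pair correlated with the 13 arrays at only 0.645 to 0.673. Its summed signal of liver markers was 1096793 to 1287095, against 2406 to 4186 over the 13 arrays. The log2 difference was 0.51 (SE 0.141), 1.43-fold, with an unadjusted p of 0.00374 and an adjusted p of 0.625 in limma. With all 16 arrays it was 0.15 with an adjusted p of 0.625. The dimmer probe set had 1198 and 1039 in NARA 4 h arrays, against 892, 737, 957 and 784 in vehicle 4 h arrays, a log2 difference of 0.39 with an adjusted p of 1. Again neither NARA array overlapped the vehicle group.

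For the brighter Plau probe set the group means ran in the order NARA 48 h (3456), NARA 4 h (2325 ± 325, n = 2), vehicle 48 h (1840) and vehicle 4 h (1612 ± 153, n = 4), with SD throughout. In that probe set the only neighbours in this order whose ranges overlap are the vehicle groups. The effect of NARA at 48 h exceeded that at 4 h by 0.37 on the log2 scale (SE 0.188), with an adjusted p of 0.607, so the times were not shown to differ. Within NARA, the 48 h arrays were 0.56 higher than the 4 h arrays with an adjusted p of 0.118, and within vehicle 0.19 higher. The dimmer probe set ordered the times the other way, with means of 986 ± 211 (n = 4) in NARA 48 h, 1118 ± 112 (n = 2) in NARA 4 h, 642 ± 73.6 (n = 3) in vehicle 48 h and 843 ± 100.3 (n = 4) in vehicle 4 h cells. Its 48 h minus 4 h difference was -0.19 within NARA (adjusted p 0.76), where the groups overlapped, and -0.37 within vehicle (adjusted p 0.678), where all 48 h arrays lay below all 4 h arrays. The probe sets of Plau therefore shared the sign of the NARA difference at both times but not that of the time difference. These comparisons share arrays with the contrasts of NARA against vehicle.

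**Figure D1:**
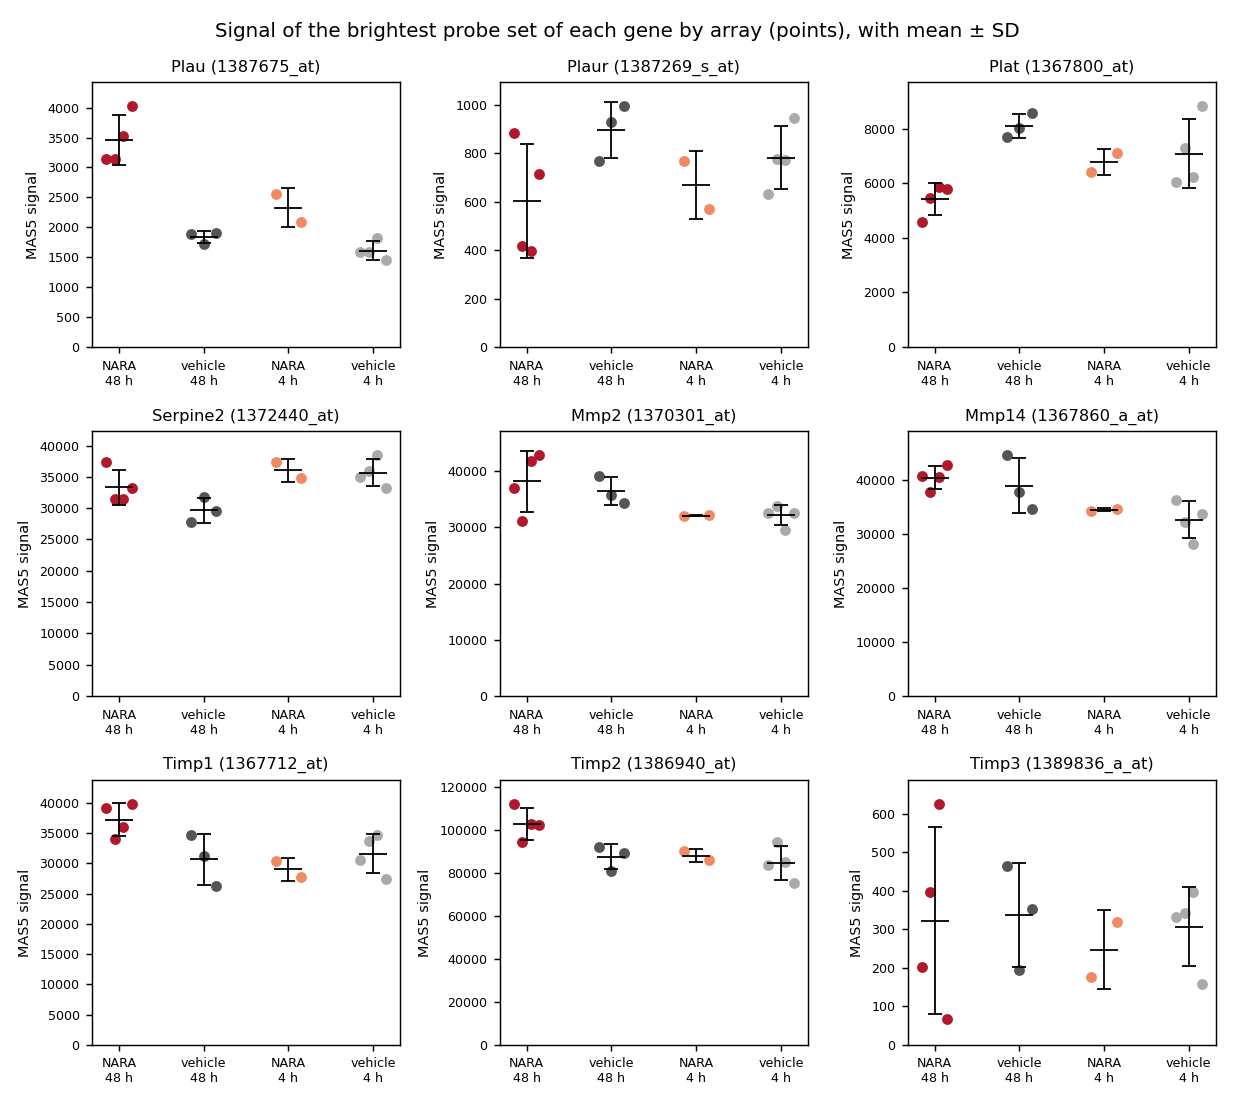
MAS5 signal (linear axis from 0) of the brightest probe set of each of the 9 genes, with 1 point per array for NARA and vehicle at 48 h and at 4 h, with horizontal lines at the group means and error bars of 1 SD. Plau signals of the 4 NARA 48 h arrays lie between 3136 and 4019, above all 3 vehicle 48 h arrays at 1717 to 1912, and Plat shows the opposite order at 4564 to 5861 against 7680 to 8575.

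Plat, the tissue-type activator, was lower in each NARA 48 h array than in any vehicle 48 h array but narrowly missed the threshold. Its single probe set (1367800_at) had signals of 4564, 5475, 5861 and 5804 in NARA 48 h cells, against 7680, 8039 and 8575 in vehicle 48 h cells. NARA cells averaged 5426 ± 599 (SD, n = 4), against 8098 ± 451 (SD, n = 3) for vehicle cells. The log2 difference was -0.58 (SE 0.144; 95% interval -0.89 to -0.26), with an unadjusted p of 0.00189 and an adjusted p of 0.0591 in limma. Without vehicle 4 h replicate 4, which had the highest Plat signal of its group, the adjusted p was 0.0353. The discarded vehicle 48 h replicate 1 had a Plat signal of 5358, inside the range of the NARA arrays. With that array added the limma difference was -0.43 with an adjusted p of 0.205.

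At 4 h the Plat groups overlapped. Signals were 6423 and 7099 in NARA 4 h cells, against 6040, 7279, 6213 and 8812 in vehicle 4 h cells, a log2 difference of -0.05 with an adjusted p of 1. Both NARA arrays fell inside the vehicle range. The 48 h effect minus the 4 h effect was -0.53, with an unadjusted p of 0.0335 and an adjusted p of 0.512.

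Plaur, the urokinase receptor, did not pass the test. Its brighter probe set (1387269_s_at) had signals of 884, 419, 395 and 714 in NARA 48 h cells, against 770, 931 and 994 in vehicle 48 h cells. NARA replicate 1 lay within the vehicle range and the other 3 below it. On the log2 scale Plaur differed by -0.60 (SE 0.252), the largest in size among the member probe sets that did not pass, with an adjusted p of 0.263. At 4 h the signals were 769 and 571 in NARA cells, against 632, 777, 772 and 948 in vehicle cells, a difference of -0.21. The dimmer Plaur probe set stayed between 12.8 and 258 in NARA 48 h arrays and between 156 and 360 in vehicle 48 h arrays, below the minimum, and correlated with the brighter at r = 0.124 over the 13 arrays.

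Serpine2, also called protease nexin 1, is a secreted serpin that inhibits urokinase, tissue-type activator and thrombin. It was bright in every group, with 37339, 31406, 31400 and 33165 in NARA 48 h cells, against 27790, 31711 and 29465 in vehicle 48 h cells. One vehicle array exceeded the lower NARA arrays. In limma the log2 difference was 0.17 (SE 0.102; adjusted p 0.468), and at 4 h it was 0.02. Within vehicle, the 48 h arrays lay below all 4 h arrays, with 33275 to 38449 at 4 h. The 48 h minus 4 h difference of -0.27 had an unadjusted p of 0.023 and an adjusted p of 0.631.

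Neither metalloproteinase passed the test between NARA and vehicle. Mmp2 encodes gelatinase A, a secreted protease that cuts basement membrane collagen. Its brighter probe set (1370301_at) had 36987, 31117, 41815 and 42861 in NARA 48 h cells, against 39165, 35812 and 34322 in vehicle 48 h cells, which lay inside the NARA range. The log2 difference was 0.06 (SE 0.121; 95% interval -0.21 to 0.32; adjusted p 0.864), and -6e-04 at 4 h. The dimmer Mmp2 probe set differed by 0.02 at 48 h, and the pair correlated at r = 0.678 over the 13 arrays.

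Mmp14 encodes a membrane-bound metalloproteinase that activates pro-Mmp2 at the cell surface, with Timp2 as its partner in that step. Its brighter probe set (1367860_a_at) had 40759, 37828, 40599 and 42924 in NARA 48 h cells, against 44681, 37772 and 34738 in vehicle 48 h cells. The NARA values fell within the vehicle range, and the log2 difference was 0.06 (SE 0.118; 95% interval -0.20 to 0.32; adjusted p 0.858). A second Mmp14 probe set (1378225_at) had 7152, 3917, 7149 and 8183 in NARA 48 h arrays, against 8040, 8563 and 7594 in vehicle 48 h arrays. Its log2 difference was -0.34 (SE 0.225; adjusted p 0.517), and NARA replicate 2 was the lowest array. In vehicle cells this probe set was 0.72 higher at 48 h than at 4 h, where signals were 4115 to 5328, without overlap, with an unadjusted p of 0.00827 and an adjusted p of 0.553.

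Timp1 encodes a secreted inhibitor of many metalloproteinases. Its signals were 39118, 34133, 35958 and 39832 in NARA 48 h cells, against 34674, 31233 and 26219 in vehicle 48 h cells. The highest vehicle array exceeded the lowest NARA array. The log2 difference was 0.29 (SE 0.125), with an unadjusted p of 0.0431 and an adjusted p of 0.291. At 4 h the difference was -0.12, and the 48 h effect exceeded the 4 h effect by 0.41 with an adjusted p of 0.569.

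Timp2 encodes the inhibitor that also bridges Mmp14 and pro-Mmp2. Its brighter probe set (1386940_at) had 111859, 94149, 102639 and 101923 in NARA 48 h cells, against 91990, 80776 and 89205 in vehicle 48 h cells. Every NARA array was above the vehicle arrays, but the log2 difference of 0.23 (SE 0.107) had an adjusted p of 0.314. The discarded vehicle 48 h replicate 1 had 97732, inside the NARA range. A second Timp2 probe set (1367823_at) ran the other way, with 10212, 4493, 8148 and 9542 in NARA 48 h cells, against 11730, 10083 and 10407 in vehicle 48 h cells. Its log2 difference was -0.47 (SE 0.236; adjusted p 0.367), and NARA replicate 2 was again the lowest. The Timp2 probe sets correlated at r = 0.0024 over the 13 arrays.

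Timp3, an inhibitor bound to the extracellular matrix, was dim. The only Timp3 probe set above the minimum (1389836_a_at) averaged 309.9, just inside it, and had 201, 397, 626 and 67.6 in NARA 48 h arrays, against 466, 195 and 352 in vehicle 48 h arrays. The groups overlapped, and the log2 difference was -0.27 (SE 0.52; adjusted p 0.855). The other 3 Timp3 probe sets averaged 187, 110 and 67.6 over the 13 arrays, below the minimum, and were not tested.

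In counts, 1 of the 13 tested member probe sets was higher in NARA at 48 h and 0 were lower, 7.69%. Among all 20904 tested probe sets 2.80% passed in either direction, 1.36% higher and 1.44% lower. An unadjusted p under 0.05 was reached by 5 of the 13 members and by 3347 of the 20904. These were both Plau probe sets, Plaur, Plat and Timp1. NARA and vehicle did not overlap for 3 members that were higher and 1 that was lower, 30.8%, against 14.7% of all, 7.19% higher and 7.53% lower. The median log2 difference of the members was 0.06, with 8 positive and 5 negative, beside -0.0037 over all tested probe sets.

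At 4 h, 0 of the 13 members passed, with a smallest adjusted p of 0.625, and 0% of all tested probe sets passed. By unadjusted p under 0.05 limma gave 1 member, Plau, and 992 of the 20904. Groups did not overlap for 2 members, both Plau probe sets and both higher, 15.4%, against 14.3% of all, 7.32% higher and 6.96% lower. The median difference at 4 h was 0.02, beside 0.0072 over all, with 8 positive and 5 negative. For the difference between the 48 h and 4 h effects, 0 members passed against 0.124% of all, and 1, Plat, had an unadjusted p under 0.05, as did 1881 of the 20904.

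Time in culture was compared within each treatment. In NARA cells, 48 h against 4 h, 0 members passed, while 0.785% of all tested probe sets did. The smallest adjusted p was 0.118, for Plau, and 2 members, Plau and Timp1, had an unadjusted p under 0.05, as did 2428 of the 20904. Ranges did not overlap for 5 members, a share of 38.5% against 21.0% of all, 10.1% higher and 10.9% lower. The brighter Plau, Timp2 and Mmp14 probe sets were higher at 48 h by 0.56, 0.22 and 0.23. Timp1 was higher by 0.36 and Plat lower, at -0.32. The dimmer Plau, Timp2 and Mmp14 probe sets differed by -0.19, -0.24 and 0.16, each with overlap. In vehicle cells, 0 members and 0% of all passed. There 2 members, Mmp14 and Serpine2, had an unadjusted p under 0.05, as did 1536 of the 20904. Ranges did not overlap for 5, with 3 higher (the dimmer Mmp14 and Timp2 probe sets and the brighter Mmp2 probe set) and 2 lower (Serpine2 and the dimmer Plau probe set), 38.5%, against 8.90% of all, 4.28% higher and 4.62% lower.

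**Figure D2:**
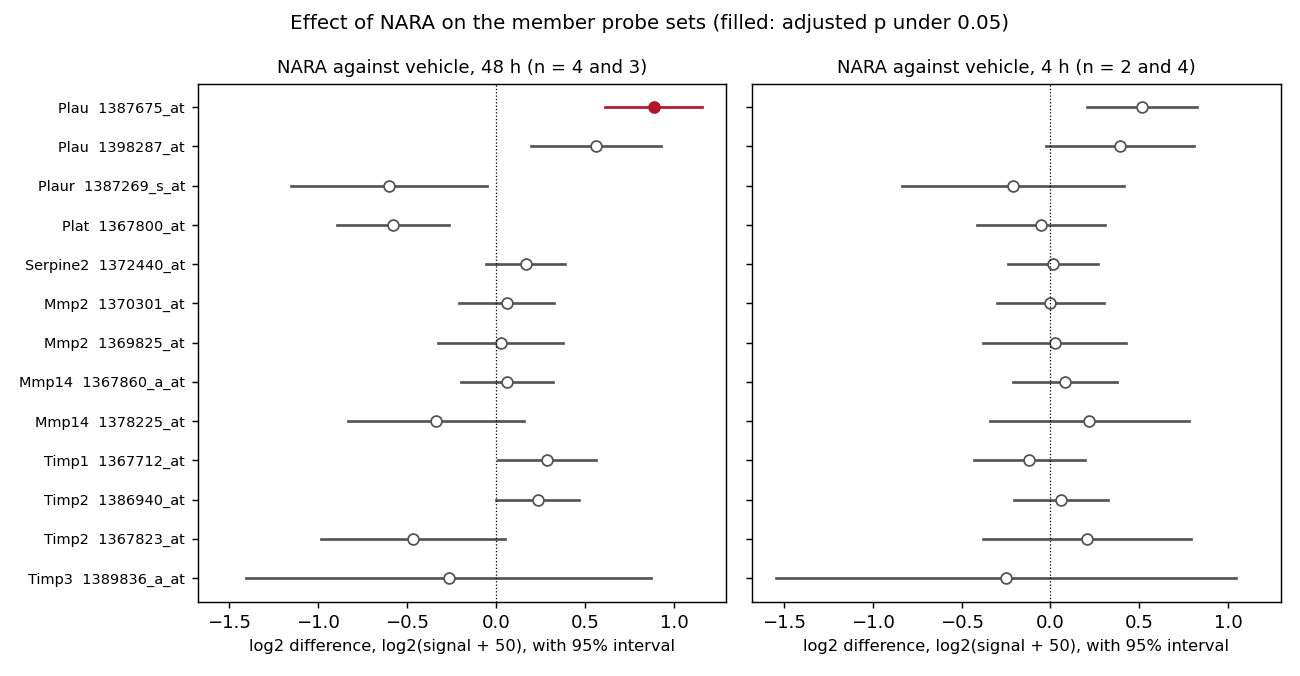
Log2 difference of NARA minus vehicle for each of the 13 tested member probe sets at 48 h and at 4 h, with 95% intervals from limma and a line at 0. The 1 filled point at 48 h, Plau at 0.89, passed the adjusted threshold, while Plat at -0.58 did not.

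The markers of other cell types were read on the same arrays, as summed signal of each list. The satellite cell and myoblast sum was 11769 to 14197 in NARA 48 h arrays, against 18435 to 22154 in vehicle 48 h arrays, without overlap. At 4 h it was 15186 to 17451 in NARA arrays, against 17526 to 20160 in vehicle arrays. The sum over smooth muscle markers was 10877 to 15316 in NARA 48 h arrays, against 15403 to 17909 in vehicle 48 h arrays. The discarded vehicle 48 h replicate 1 had a smooth muscle sum of 13746, inside the NARA range. Of the 6 smooth muscle genes 3 had a lower mean in NARA and 3, namely Cnn1, Smtn and Lmod1, a higher one. The lower ones were led by Tagln and Acta2, with 5579 and 4019 in NARA cells, against 8547 and 5076 in vehicle cells. Within the satellite cell list the genes did not move together, and 6 of 11 had a higher mean in NARA 48 h cells and 5 a lower one. Cxcr4 and Sdc4 averaged 590 and 6362 in NARA 48 h cells, against 4923 and 10613 in vehicle 48 h cells. These were the brightest genes of the list, with means of 2848 and 8548 over the 13 arrays. The lower satellite cell sum at 48 h reflects mainly them. Itga7 and Ncam1 averaged 761 and 1384 in NARA cells, against 394 and 880 in vehicle cells. The sums of both lists were lower in NARA at 48 h, where Plau was higher and Plat lower. At 4 h the smooth muscle sum overlapped, at 18016 to 26308 in NARA arrays, against 18174 to 26080 in vehicle arrays. The part of both lists in the result was not tested. The fibroblast sum overlapped, at 393469 to 492437 in NARA 48 h arrays, against 385482 to 474822 in vehicle 48 h arrays, but its genes did not move together. The collagens Col1a2 and Col3a1 averaged 145320 and 134610 in NARA 48 h cells, against 124165 and 102939 in vehicle 48 h cells, while 6 of the 10 genes had a lower mean in NARA. Among these 6, Lum, Postn, Pdgfra and Dcn averaged 21044, 16094, 5458 and 4847 in NARA cells, against 43771, 23756, 9292 and 7114 in vehicle cells, and their part in the result was not tested. The macrophage sum also overlapped, at 5176 to 5826 in NARA 48 h arrays, against 4300 to 5961 in vehicle 48 h arrays, and 4 of its 8 markers, Ptprc, Adgre1, Cd163 and Itgam, were below the minimum on average.

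Genes of the wider system were read from 5 lists with 73 genes, of which 67 had a probe set and 51 were tested by their brightest one. At 48 h 3 were higher in NARA and 0 lower, 5.88% of those tested, against 3.21% of all 11286 genes. The median difference was -0.0251, with 24 positive and 27 negative, beside -0.0051 over all genes. At 4 h 0 passed, as over all genes.

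Thbd, in the list of other plasminogen system genes, encodes thrombomodulin, which binds thrombin and redirects it to activate protein C and a carboxypeptidase that protects fibrin from plasmin. Its signals were 3675, 3413, 3132 and 3098 in NARA 48 h cells, against 1318, 1367 and 1258 in vehicle 48 h cells. All NARA arrays were far above the vehicle arrays, and Thbd rose by 1.31 on the log2 scale, 2.47-fold (SE 0.150; adjusted p 0.000681). The call held in 24 of 25 alternatives, the exception being all 16 arrays (adjusted p 0.111). At 4 h it had 749 and 982 in NARA cells, against 810, 940, 851 and 1246 in vehicle cells, a difference of -0.14, with the NARA arrays overlapping the vehicle range. In this list 1 of 11 tested genes was higher and 0 were lower, 9.09%, with 6 positive and 5 negative and a median of 0.10.

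Itgb3, in the list of inhibitors and regulators, encodes the integrin beta chain that pairs with alpha V as a vitronectin receptor. It had 715, 570, 686 and 780 in NARA 48 h cells, against 403, 377 and 168 in vehicle 48 h cells. The groups did not overlap, but the discarded vehicle 48 h replicate 1 had 694, inside the NARA range. With that array added the limma difference was 0.80 with an adjusted p of 0.165. As reported, Itgb3 rose by 1.08 (2.11-fold; SE 0.236; adjusted p 0.0336), a call that was lost in 16 of 24 alternatives. The arrays whose single removal ended it were vehicle 4 h replicate 3, NARA 4 h replicates 2 and 3, vehicle 48 h replicates 3 and 4 and NARA 48 h replicates 1, 3 and 4, with adjusted p between 0.0504 and 0.0854. In this list 1 of 7 tested genes was higher and 0 lower, with 2 positive and 5 negative and a median of -0.10. Among the 5 negative was Itgav, which encodes alpha V, at -0.37 with a limma adjusted p of 0.198 and overlapping groups.

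Adamts15, in the list of ADAM and ADAMTS proteases, encodes a secreted protease that cuts the proteoglycans versican and aggrecan. It had 2658, 2149, 3375 and 3837 in NARA 48 h cells, against 1170, 1763 and 1588 in vehicle 48 h cells. All NARA arrays were above the vehicle arrays, although the discarded vehicle 48 h replicate 1, at 2105, was just below the lowest of them. Adamts15 rose by 0.96 (1.94-fold; SE 0.200; adjusted p 0.0268), a call lost in 7 of 25 alternatives. Among these were the removal of vehicle 48 h replicates 2 or 4 or NARA 48 h replicates 3 or 4, with adjusted p between 0.0571 and 0.117. In this list 1 of 14 tested genes was higher and 0 lower, with 7 positive and 7 negative and a median of 0.02.

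Of the other matrix metalloproteinases, 0 of 9 tested passed, with 5 positive and 4 negative and a median of 0.03. Mmp8, neutrophil collagenase, had the smallest p at 48 h together with Mmp16, a membrane-type relative of Mmp14. Mmp8 had 548, 247, 397 and 409 in NARA 48 h arrays, against 36.4, 57.4 and 475 in vehicle 48 h arrays, with vehicle replicate 4 inside the NARA range and a difference of 1.37 (SE 0.503; adjusted p 0.198). Mmp16 had 345, 141, 353 and 415 in NARA 48 h arrays, against 624, 533 and 622 in vehicle 48 h arrays, without overlap and with a difference of -0.90 (SE 0.285; adjusted p 0.135). Among the cathepsins and cystatins, lysosomal proteases and their inhibitors, 0 of 10 tested passed, with 4 positive and 6 negative and a median of -0.11. Ctsh, an aminopeptidase-like cathepsin, differed by 0.34 (adjusted p 0.118) and Ctsl, an endopeptidase, by -0.21 (adjusted p 0.375).

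**Figure D3:**
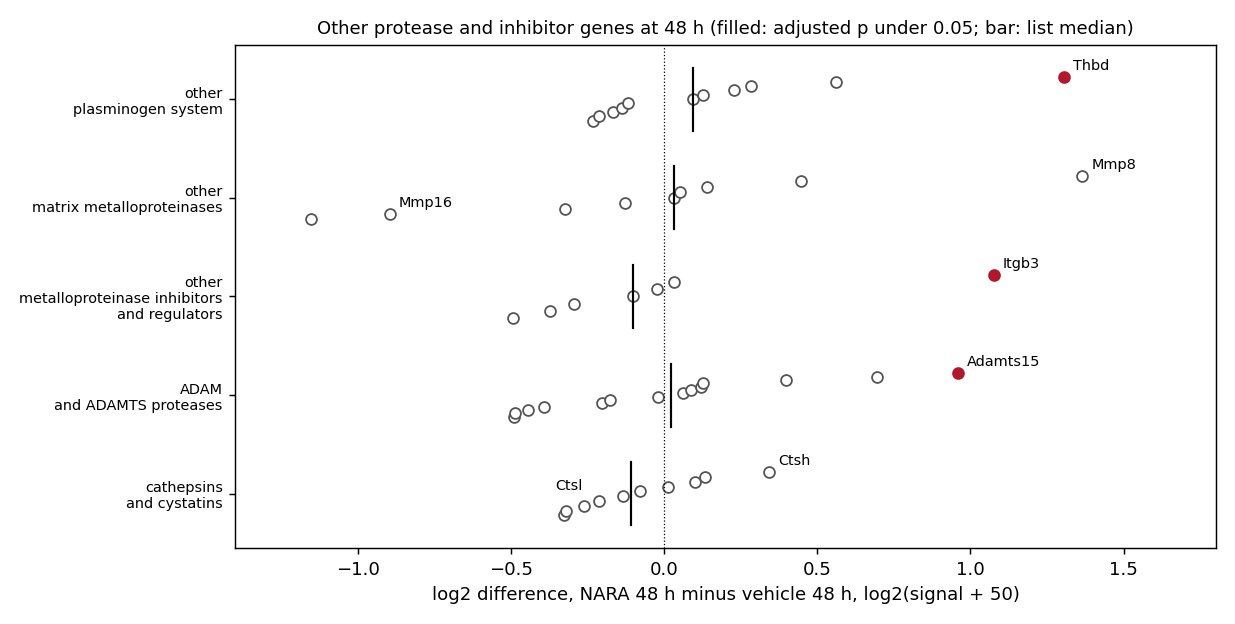
Log2 difference of NARA minus vehicle at 48 h for each tested gene of the 5 wider lists, with 1 point per gene and a bar at each list's median. Filled points passed the adjusted threshold, and these are Thbd at 1.31, Itgb3 at 1.08 and Adamts15 at 0.96.

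The genes whose signal over the 13 arrays was most like that of a member were picked by Pearson correlation of log2(signal + 50), as a description. For Plau they were Rgs2, Slc44a1 and Nkain1 (r = 0.969, 0.967 and 0.967), and for Plat Epha3, Ghr and Acaa2 (0.926, 0.923 and 0.922). Timp2 was followed most closely by the collagen gene Col3a1 (0.968), then Ints4 (0.936) and Col5a2 (0.92), and Timp1 by Pex16 (0.896), Serpinh1 (0.894) and Sec61a1 (0.89). Mmp2 came with Dpp7, Ccn5 and Ergic3 (0.932, 0.928 and 0.915), and Mmp14 with Eci2, Rnaset2 and Grina (0.92, 0.908 and 0.902). For Plaur the nearest were Endod1, Cd68 and Akirin2 (0.937, 0.925 and 0.907), for Serpine2 Ptges3, Pgam1 and Pbk (0.908, 0.903 and 0.897), and for the dim Timp3 Zkscan5, Spindoc and Tmem203 (0.9, 0.893 and 0.848). All of these genes share the arrays, their scaling and the group differences with the member.

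For Plau the settings of the test were varied with its neighbour Plat. Plau passed in 24 of 25 alternatives, with values of 0.81 to 0.98, and the 1 that lost the call added the 3 discarded arrays, with a difference of 0.97 and an adjusted p of 0.0764. Plat passed in 3 of 25, with values of -0.62 to -0.43 and adjusted p from 0.00717 to 1.

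**Figure D4:**
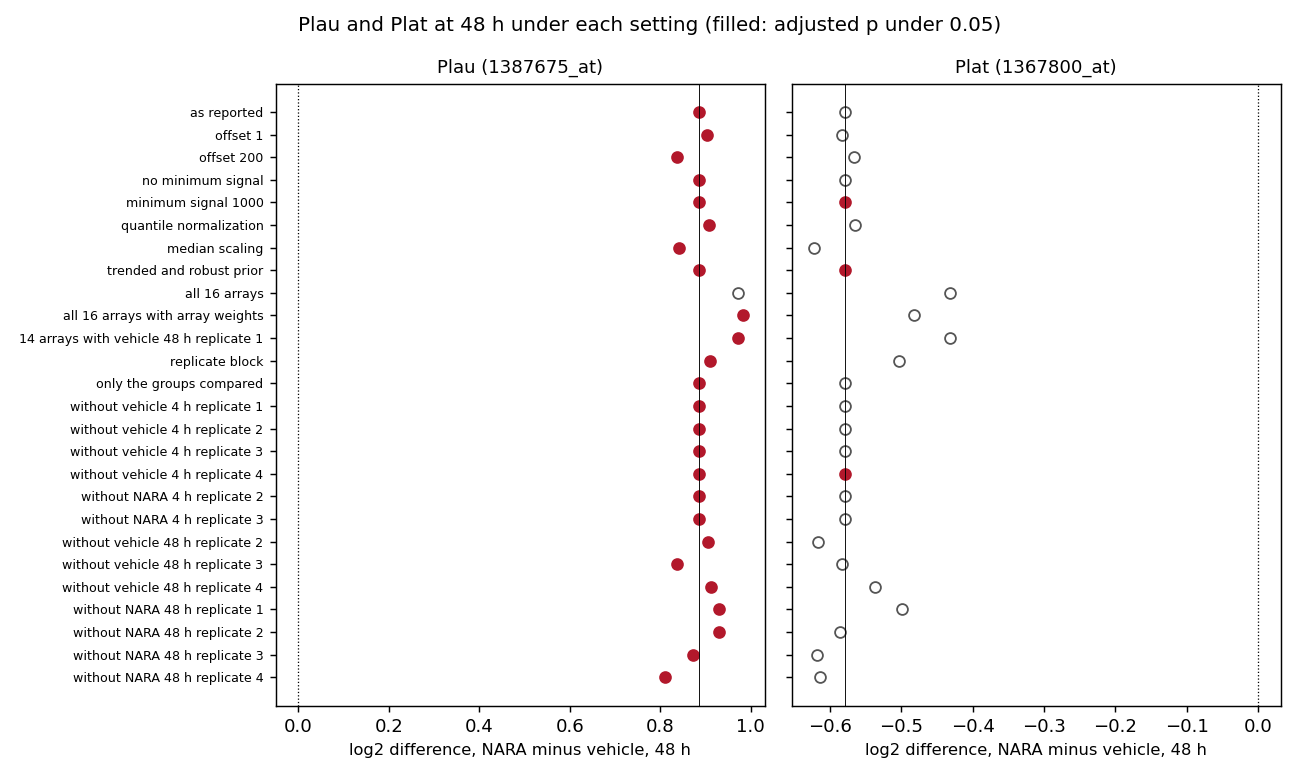
Log2 difference of NARA minus vehicle at 48 h for Plau and Plat under each alternative setting, with filled points past the adjusted threshold. The Plau values lie between 0.81 and 0.98 and the Plat values between -0.62 and -0.43.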

How the data were processed

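RNA of 16 rat cell cultures was measured on Affymetrix Rat Genome 230 2.0 arrays, 1 per sample. Each deposited intensity is a linear MAS5 signal that the authors scaled to a trimmed mean of 1500, per the series' design text, and MAS5 is also named in the submitters' processing notes. The labels' protocols describe a Trizol extraction and the design text a column kit, and which applied is not given in the sources used here. Per the design text the authors discarded 3 arrays that correlated poorly with the others and lay apart in a principal component analysis, and the 13 they kept were used here.

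Signals were taken as log2(signal + 50), and those averaging 300 or more over the 13 arrays were tested. Group means were fitted with limma 3.58.1 (lmFit and eBayes, 9 residual and 2.4 prior degrees of freedom) in R 4.3.3, with 5 contrasts. Benjamini-Hochberg adjustment of two-sided p-values ran over the 20904 tested probe sets, at a threshold of 0.05. Names came from the platform annotation, which gave 20826 probe sets 1 symbol, 436 several and 9780 none. Genes of the wider lists are named where they passed, and otherwise the 2 with the smallest p at 48 h in a list. Itgav is named as the partner of Itgb3. The fit was tested on simulated data with independent normal noise for each probe set. At 48 h the share of changes found was 19.2% at 1.5-fold, 52.6% at 2-fold and 84.8% at 4-fold. These shares pool 5 separate runs on 20904 tested probe sets, with 250, 500 and 250 changed probe sets over all runs together. Of the calls in these runs, 5.6% were of unchanged probe sets. Alternatives covered the offset, the minimum signal, the normalization, the prior, the arrays included, a replicate block and leaving out each array. The number of arrays limits the precision. The members and lists were chosen with earlier results of these data known.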

Additional observations from a re-analysis of the deposited data

Results flagged for a closer look

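Thbd differed between the times by the test of the difference itself. Its NARA effect at 48 h exceeded that at 4 h by 1.44 on the log2 scale (SE 0.226), with a limma adjusted p of 0.0391, and it was the 1 gene of the wider lists to pass. The adjusted p was 0.0898 with no minimum signal, 0.0853 with median scaling, 0.322 with all 16 arrays and 0.248 with a replicate block. It passed without vehicle 4 h replicate 1 (0.0499) or replicate 4 (0.0477). Without any single one of the other 11 arrays, namely vehicle 4 h replicates 2 and 3, NARA 4 h replicates 2 and 3, vehicle 48 h replicates 2, 3 and 4 and NARA 48 h replicates 1, 2, 3 and 4, it was between 0.0586 and 0.133.

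Timp3 was bright in arrays that the comparisons do not use. Probe set 1389836_a_at had 2109 and 2830 in the discarded NARA 4 h replicates 1 and 4, against 158 to 397 in the vehicle 4 h arrays, and probe set 1375138_at had 2534 and 2300, against 29.8 to 299. On the same pair of arrays 11 of the 17 member probe sets lay below all vehicle 4 h arrays, 2 lay above and 4 overlapped. Over all 31042 probe sets 24.4% lay below, 29.5% above and 46.1% overlapped in the same comparison. Mmp2 had 2435 and 2508 there, against 29605 to 33795 in vehicle 4 h arrays. The summed signal of the liver list (Alb, Apoa1, Ttr and others) was 1096793 to 1287095 on that pair, against 2406 to 4186 over the 13 arrays, and the fibroblast sum was 28029 to 31947, against 385482 to 492437. The part of these lists in the Timp3 signal was not tested.

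Dixon's criterion was applied to the groups that kept 4 arrays, NARA 48 h and vehicle 4 h, for each of the 13 tested member probe sets. Of these 26 sets of 4 values, 0 held a far sample. The groups of 3 arrays (vehicle 48 h) and 2 arrays (NARA 4 h) were not examined.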

How the results depend on the processing

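The count of members past the threshold at 48 h, 1 as reported, was 2 with a minimum signal of 1000, and also 2 when the prior was trended and robust, where Plat passed at adjusted p of 0.0153 and 0.00717, and 0 with all 16 arrays. Leaving out 1 array at a time gave 1 to 2 members, with 2 without vehicle 4 h replicate 4 (Plat added) and without NARA 48 h replicate 2 (the dimmer Plau probe set added). For 48 h against 4 h in NARA, 0 as reported, a minimum signal of 1000 gave 1, Plau at 0.56 with an adjusted p of 0.0373. The counts of members at 4 h, in the difference of effects and for time in vehicle were 0 under every alternative run. Of 322 member values at 48 h, 317 kept their side of the threshold, and 9, of 4 probe sets, none of them called, changed sign. Over the whole array the 48 h count of 586 became 355 with no minimum, 1069 with a minimum of 1000, 1098 with the other prior, 39 with all 16 arrays, 217 with only the groups compared, and 310 and 321 without vehicle 48 h replicates 3 and 2. At 4 h the count over the whole array was 0 as reported and 0 to 19 under the alternatives, for the difference of effects 26 and 0 to 126, for time in NARA 164 and 13 to 372, and for time in vehicle 0 and 0 to 2. With all 16 arrays and array weights the 48 h count was 506, and with only vehicle 48 h replicate 1 added it was 770. The 16 arrays include the discarded NARA 4 h replicates 1 and 4, which correlated with the 13 at 0.645 to 0.673. The cause of the changes between settings was not tested. Deviations of same-numbered arrays of different groups correlated at r = -0.0364 to 0.0387 over 16 pairs. Their median was 0.0108, against -0.0012 over 46 pairs of other numbers, and 2 of 13 arrays correlated best with their own number. Deviations from the means of groups of 2 to 4 arrays constrain each other, so this check cannot exclude a pairing by number. With the replicate block, 1 member passed at 48 h, Plau at 0.91 with an adjusted p of 0.0248, and the whole-array count was 312. For arrays the signal over background takes the place of depth: the tested Timp3 probe set, the dimmest of the 13, had the largest standard error at 48 h, 0.52.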

Other observations

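Members were also set against each other by Pearson correlation of log2 signals over the 13 arrays, and again on deviations from the group means. These points share the arrays and their scaling. Mmp2 and Mmp14, the protease and its surface activator, correlated at r = 0.820 over all arrays and at 0.653 within groups, and Timp1 and Timp2 at 0.759 and 0.573. Plau and Plat had r = -0.714 over all arrays and -0.153 within groups, and Plau and Timp2 0.801 and 0.335, each weaker within groups. Plat and Timp1 had -0.737 and -0.555. The pairs given are a selection. Largest in size within groups was Plaur with the dim Timp3, at -0.482 over all arrays and -0.766 within groups. Plat and Serpine2 had -0.442 and -0.620, and Plaur and Serpine2 0.095 and 0.615.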
